A study of Danio rerio with 21 samples.

Results

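The genes described here store, release or detoxify iron and other metals in zebrafish blood cells. They are the ferritin heavy-chain genes fth1a, fth1b, fthl27, fthl28, fthl29, fthl30 and fthl31, the metallothionein gene mt2, the haem oxygenase gene hmox1a and the iron exporter gene slc40a1. They were chosen by symbol, with earlier results of these data known, and make up 12 of the 27758 gene rows, because fthl27 and fthl31 each stand on 2 identifiers. Those rows were kept apart: fthl27 and fthl31 below mean the abundant identifiers, ENSDARG00000031776 and ENSDARG00000094210. The other fthl27 row, ENSDARG00000116586, held 978 UMIs (unique molecular identifiers, each standing for 1 captured RNA molecule) over all 21 libraries, and the other fthl31 row, ENSDARG00000113150, held 244.

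Ferritin is a hollow protein shell that keeps iron in a safe form, and its heavy chain carries the site that oxidises iron on entry. Haem oxygenase opens the haem ring and frees its iron, and ferroportin, the product of slc40a1, is the exporter through which iron leaves a cell. Metallothioneins are small cysteine-rich proteins that bind zinc, copper and cadmium. In vertebrates, red cell precursors take up iron to make haem, while macrophages take up old red cells and hand their iron back to the circulation. fthl27, fthl28, fthl30, fthl31 and fthl29 lie next to each other in this order in the RefSeq table of the GRCz12tu assembly, which is not the build of the counts. Reads from near-identical copies may be shared or discarded by the counting, so the split among these 5 genes is uncertain.

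The study followed blood stem and progenitor cells (HSPCs) that were given a heritable mCherry label at 1 (early), 2 (mid) or 3 (late) days post fertilisation (dpf), sorted the labelled progeny and measured their RNA with droplet single-cell sequencing. Each group was 1 library. The labels do not say which promoter drove the label, nor how many fish were pooled. The crispant libraries came from early-labelled larvae collected at 8 dpf: rag1 crispants with R848, slc24a5 crispants with R848, rag1 crispants untreated and slc24a5 crispants untreated. R848 (resiquimod), an agonist of Toll-like receptors, was given at 25 µM at 6 dpf. Crispants are mosaic mutants, here in rag1, which is needed for antigen receptor rearrangement, or in slc24a5, a pigmentation gene that served as the control. The larval tracing libraries were early-labelled cells at 2, 6 and 10 dpf, mid-labelled cells at 3, 6 and 10 dpf and late-labelled cells at 4, 6 and 10 dpf, all sorted from whole larvae. The adult libraries were early- or late-labelled cells at 4 months from kidney marrow, intestine, thymus and the tessellated lymphoid network (TLN).

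The libraries held 8303823 to 150042529 UMIs, and 185887 of 201364 barcodes were used. Pairs of libraries shared at most 0.977% of the smaller library's barcodes. In rag1 crispants, rag1 stood at 1.83 CPM (UMI counts scaled to the same total in each library) with R848 and 2.83 untreated, against 4.34 and 7.37 in slc24a5 crispants; these tags need not lie in the edited part, so they do not measure the editing. Cell classes were named from marker genes and are written as such ("macrophage-like"). Every macrophage-like class had at least 10 of its 12 markers detected, and no member was used to cluster the cells or to name a class. A level here is the CPM of UMIs summed over the cells of 1 class in 1 library; 3′ tags give about 1 count per molecule whatever the gene's length. A class was used where a library held at least 50 of its cells. With 1 library per group there is no test between groups: a member was counted as changed when log2(CPM + 5) differed by at least 2-fold in the same direction in every pair of libraries named, with at least 50 UMIs in the higher library. Intervals in the plots are exact Poisson 95% intervals, which cover counting error only. Cells of 1 library are not replicates.

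Among blood classes, macrophage-like and erythroid-like cells had the highest median ferritin RNA, and they held different genes. The summed CPM of all ferritin rows had a median of 10599 over 17 libraries in macrophage-like cells, with a range of 2062 to 26337. In erythroid-like cells the median was 5282 over 16 libraries, with a range of 3029 to 11064. fth1a made up a median of 9.46% of ferritin UMIs in macrophage-like cells (2.00% to 39.4%), against 76.5% in erythroid-like cells (58.6% to 92.5%). Outside blood, endothelial-like cells had a median of 4951 CPM over 9 libraries, and the 1 library with an epithelial-like class, late-labelled larvae at 4 dpf, had 11092 CPM in it. No library's macrophage-like share reached the lowest erythroid-like share.

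fth1a, the heavy-chain gene named after the mammalian FTH1, followed the erythroid classes. Its level in erythroid-like cells had a median of 4388 CPM (2517 to 7876 CPM, 16 libraries). Erythroid-like clusters with under 10% haemoglobin UMIs, a split made after the data were seen, had a median of 2345 CPM (182 to 3377 CPM, 11 libraries). The lowest erythroid-like library lay above the highest library of every class outside the erythroid ones, which was 2048 CPM in macrophage-like cells of the early-labelled thymus. Neutrophil-like cells had a median of 918 CPM and macrophage-like cells 598 CPM, and these ranges overlapped. Of the 14 libraries that were ranked and had the erythroid-like class, fth1a was highest in it in 12. fth1b, the duplicate of fth1a, was scarce: its highest level in any class and library was 19.2 CPM, in neural-like cells of late-labelled larvae at 4 dpf.

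fthl27 was the most abundant member, with 2825330 UMIs in all, against 1865917 for fth1a. In macrophage-like cells its median was 9294 CPM and its range 1441 to 20620 CPM. The next blood class by median was B-like cells, with 2785 CPM over 4 libraries. fthl27 was highest in macrophage-like cells in 14 of 17 libraries, in B-like cells in 2 and in low-haemoglobin erythroid-like cells in 1. fthl28 had the same count of 14 of 17, at a median of 330 CPM and a range of 26.4 to 3945 CPM in macrophage-like cells. fthl31, fthl29 and fthl30 were rarer, with macrophage-like medians of 113, 11.7 and 2.85 CPM. Among blood classes fthl31 was highest in macrophage-like cells in 11 of 17 libraries, and fthl30 in 6 of 7. By median, fthl30 was higher in low-haemoglobin erythroid-like cells (36.5 CPM). Endothelial-like cells, outside blood, had higher medians of both, 176 CPM of fthl31 and 71.1 CPM of fthl30.

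hmox1a was the member most restricted to macrophage-like cells among blood classes. It was highest there in 17 of 17 libraries, at a median of 154 CPM and a range of 44.3 to 1460 CPM. No other blood class exceeded 22.5 CPM in any library, so the ranges did not overlap. Outside blood, endothelial-like cells (23.2 to 76.2 CPM) and mesenchymal-like cells (13.4 to 64.1 CPM) overlapped the lowest macrophage-like libraries. slc40a1 was low and spread widely: macrophage-like cells had a median of 16.9 CPM and a range of 0.739 to 175 CPM. Neural-like cells had a narrow range of 34.5 to 49.3 CPM over 9 libraries, and enterocyte-like cells of the adult intestine had 111 CPM with early label and 22.3 CPM with late label.

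mt2 was highest in different classes in different libraries. Macrophage-like cells ranged from 1.71 to 3408 CPM, T and NK/ILC-like cells from 33.4 to 2997 CPM and erythroid-like cells from 7.84 to 442 CPM. It was highest in macrophage-like cells in 9 of 17 libraries, in T and NK/ILC-like cells in 5 and in erythroid-like cells in 3. Neural-like cells, which are no blood class, had the highest median, 505 CPM (62.4 to 978 CPM, 9 libraries).

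**Figure D1:**
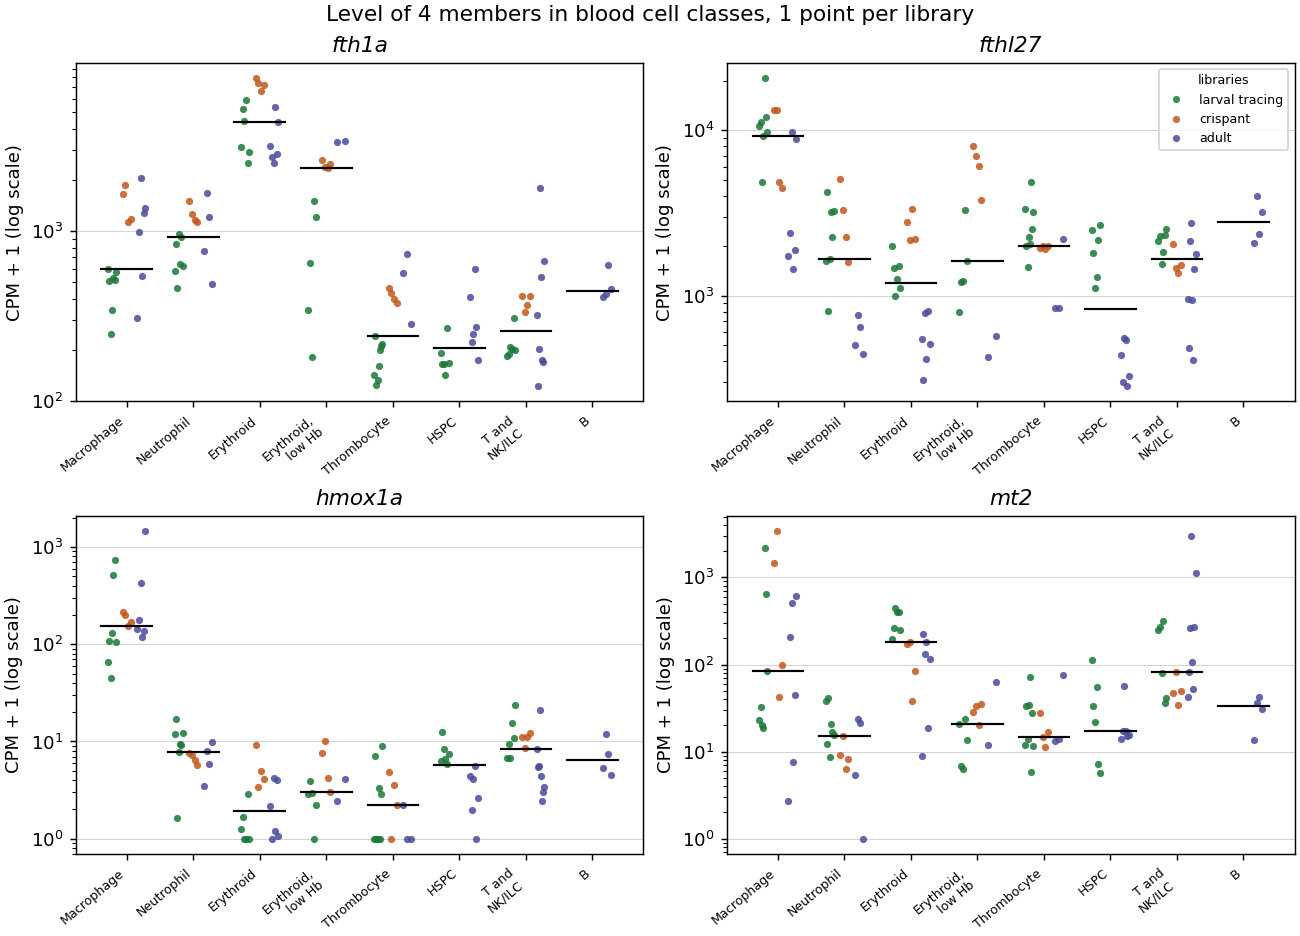
CPM + 1 on a log axis for fth1a, fthl27, hmox1a and mt2 in 8 blood cell classes; each point is 1 library, coloured by experiment, and bars are medians over libraries. fth1a peaks in erythroid-like cells (median 4388 CPM) and fthl27 in macrophage-like cells (median 9294 CPM), hmox1a in macrophage-like cells lies above every other blood class, and mt2 spreads over more than 3 powers of 10 in macrophage-like cells.

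Over the 141 sums of a library and a class with at least 50 cells, the members fell apart in the same way; the sums share libraries and depth, so these correlations are descriptions. The Pearson correlation of log2(CPM + 5) was 0.92 for fthl28 with fthl31 and 0.92 for fthl29 with fthl30, but 0.0075 for fth1a with fthl27. Reads may be shared among the fthl copies, and the part of this in their correlations was not tested. Among 4880 other genes, the closest to fth1a were gpx1a (0.88), a glutathione peroxidase, tspo (0.84) and hemgn (0.81), the zebrafish gene named after the erythroid nuclear protein hemogen. For fthl27 they were tspan36 (0.75), bach1b (0.70), named after the haem-binding repressor BACH1, and CABZ01020840.1 (0.68). For hmox1a they were mafba (0.81), a macrophage transcription factor gene, krt18b (0.79) and icam3 (0.79). mt2 had looser matches, cry3a (0.60), ca2 (0.54) and serinc1 (0.53), as did slc40a1, with EYFP (0.59), tmem63ba (0.58) and rtn3 (0.57).

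R848 came with less mt2 and less ferritin RNA in macrophage-like cells of both genotypes. mt2, fthl28, fthl29, fthl27, fthl30 and fthl31 fell by at least 2-fold in both pairs, and no member rose. That is 6 of the 9 members with enough UMIs; over all 11570 genes tested in this class 1.76% fell in both pairs and 11.3% rose. The members were chosen with these changes known, so the counts describe them only. The median log2 ratio of the 9 members was -1.45 in rag1 and -1.67 in slc24a5 crispants, while the median gene stood at 0.38 and 0.34.

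mt2 moved most. Macrophage-like cells held 97.2 CPM in rag1 crispants with R848 and 41.4 CPM in slc24a5 crispants with R848, against 3408 CPM in untreated rag1 crispants and 1479 CPM in untreated slc24a5 crispants. Both R848 libraries lay far below both untreated ones. The log2 ratios were -5.06 in rag1 and -5.0 in slc24a5 crispants. These sums rest on 2380 and 1765 mt2 UMIs with R848, against 12522 and 6511 untreated, from 1337 and 2085 cells with R848 and 233 and 237 untreated.

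A minority of cells carried most of the mt2. The 10 richest macrophage-like cells held 46.6% of it in rag1 crispants with R848 (1337 cells) and 48.3% in slc24a5 crispants with R848 (2085 cells). Untreated, the 10 richest held 47.3% in rag1 (233 cells) and 57.8% in slc24a5 crispants (237 cells). Since 10 cells are a larger part of the untreated classes, these shares do not compare concentration between R848 and untreated. With the richest 5% of cells left out, a choice made after the data were seen, 10.3 and 3.30 CPM remained in rag1 and slc24a5 crispants with R848, against 1810 and 565 CPM untreated. Thinned to 3000 UMIs per cell, 7.65% and 4.57% of macrophage-like cells had an mt2 UMI with R848, against 43.4% and 31.2% untreated. Without thinning these shares were 14.7% and 10.7% with R848, against 46.4% and 45.1% untreated. Thinning left out 278 and 355 shallower macrophage-like cells with R848, and 58 and 35 untreated. Of mesenchymal-like cells it left out 305 and 525 with R848, where 541 and 886 remained. Untreated, it left out 265 and 593 mesenchymal-like cells, where 725 and 1552 remained. In mesenchymal-like cells, which held little mt2, the thinned shares were 1.29% and 1.47% with R848, against 2.62% and 2.90% untreated; median depths there were 3508 and 3555 UMIs with R848 and 4010 and 4108 untreated, below the 16819 and 21743 with R848 and 13319 and 17190 untreated in macrophage-like cells.

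fthl28 came next among the members. Its level was 330 CPM in rag1 and 294 CPM in slc24a5 crispants with R848, against 3319 and 2837 CPM in the untreated libraries of the same genotypes, log2 ratios of -3.31 and -3.25. Thinned shares of macrophage-like cells with an fthl28 UMI were 39.8% and 40.6% with R848, against 75.4% and 80.2% untreated, while in mesenchymal-like cells they were 18.5% and 18.7% with R848, against 16.7% and 20.9% untreated. fthl29 stood at 47.6 and 37.9 CPM with R848, against 319 and 224 CPM untreated. fthl27, the bulk of macrophage ferritin, stood at 4473 and 4873 CPM with R848, against 13227 and 13357 CPM untreated, log2 ratios of -1.56 and -1.45. For fthl30 and fthl31 the log2 ratios lay between -1.41 and -1.97. In all of these the R848 and untreated libraries did not overlap.

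fth1a, hmox1a and slc40a1 did not reach 2-fold. fth1a had 1177 CPM in rag1 and 1121 CPM in slc24a5 crispants with R848, against 1854 and 1651 CPM untreated (log2 ratios -0.65 and -0.56). The haem oxygenase gene hmox1a had 168 and 154 CPM with R848, against 198 and 212 CPM untreated (-0.23 and -0.45). The exporter gene slc40a1 had 28.2 and 29.3 CPM with R848, against 51.2 and 35.4 CPM untreated (-0.76 and -0.24). Each R848 library was below its untreated partner, by less than the size used for a call.

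**Figure D2:**
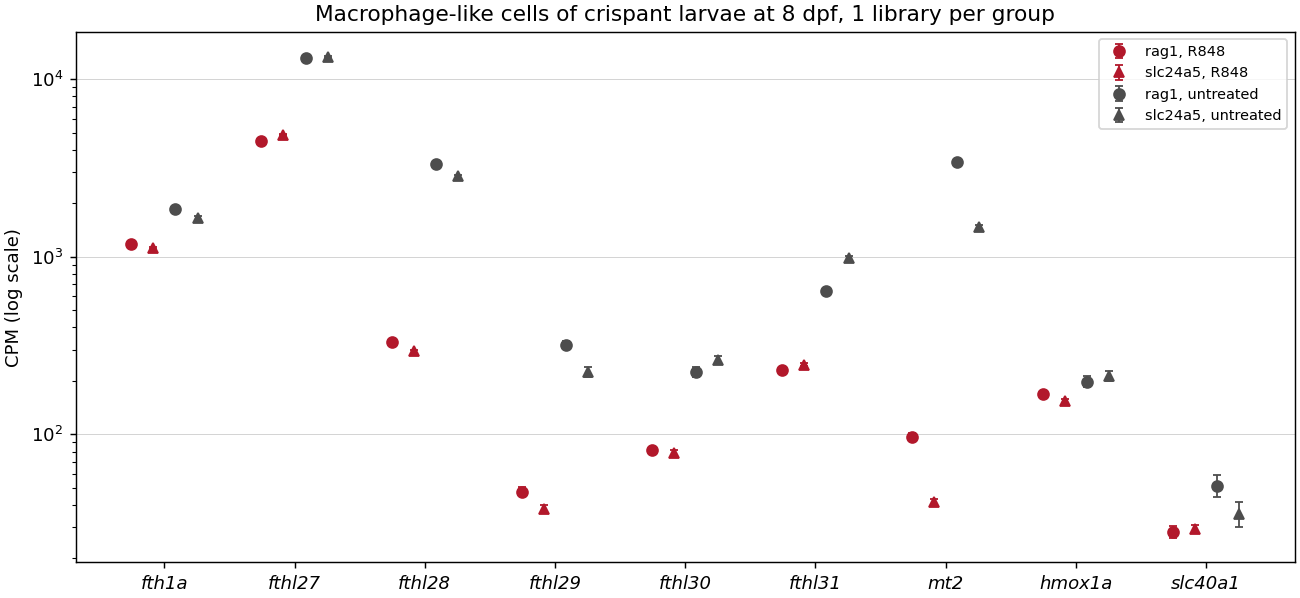
CPM on a log axis of 9 members in macrophage-like cells of the 4 crispant libraries at 8 dpf, R848 in red to the left of untreated in grey, circles rag1 and triangles slc24a5, with exact Poisson 95% intervals. mt2 is at 97.2 and 41.4 CPM with R848, against 3408 and 1479 CPM untreated, while hmox1a differs by under 2-fold.

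The macrophage-like class was not the same mixture with and without R848. Cluster 34, led by histone genes, held 11.2% of the class in rag1 and 12.6% in slc24a5 crispants with R848, and fewer than 20 cells untreated. Within cluster 10, led by NPC2, marco and ctsk among others and the larger cluster in every library, mt2 had 155 and 77.1 CPM with R848 in rag1 and slc24a5 crispants, against 6078 and 3911 CPM untreated. fthl28 in that cluster had 410 and 298 CPM with R848, against 5180 and 5382 CPM untreated. Cluster 9, 26.9% to 43.0% of the class, held little mt2 in any library, 5.16 and 4.17 CPM with R848 against 12.4 and 29.2 CPM untreated. In cluster 9 of rag1 crispants only fthl28 of the 6 members differed by 2-fold on the CPM + 5 scale, with 204 CPM with R848 against 597 CPM untreated. fthl27 there had 3442 CPM with R848 against 6493 CPM untreated, fthl29 38.9 against 49.6 CPM, fthl30 60.8 against 93.9 CPM and fthl31 177 against 224 CPM. In cluster 9 of slc24a5 crispants all 6 were lower by at least 2-fold on the CPM + 5 scale, fthl27 with 4555 CPM with R848 against 9491 CPM untreated. The 12 macrophage markers summed to 16496 and 17336 CPM with R848 and 9789 and 6151 CPM untreated, all 12 detected in each library. Epithelial markers summed to 181 and 260 CPM with R848, against 700 and 1336 CPM untreated, neutrophil markers to 926 and 1012 CPM against 807 and 759 CPM, and pigment-cell markers to 10.6 and 14.2 CPM against 7.08 and 3.41 CPM. The 13 stress genes summed to 928 and 605 CPM with R848, against 1162 and 1774 CPM untreated. The part of these differences in the mt2 and ferritin values was not tested.

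Other iron, haem and metal genes of macrophage-like cells moved in part. Of 66 genes on 6 lists, 50 had enough UMIs, 6 fell and 4 rose in both genotypes, where 1.76% of all genes of the class fell and 11.3% rose; the 4 rises are a smaller share than among all genes. On the oxidative stress list 5 of 14 fell: slc7a11 (log2 ratio -1.80 in rag1, -1.92 in slc24a5 crispants), a cystine transporter gene, sqstm1 (-1.51, -2.10), which encodes the autophagy adaptor p62, bach1b (-1.11, -1.25) and gclm (-1.06, -1.38), a subunit of the enzyme that starts glutathione synthesis, and txnrd3 (-1.37, -1.01), a thioredoxin reductase gene. On the haem synthesis list 3 of 9 rose: alad (1.62, 1.65), urod (1.35, 1.48) and cpox (1.35, 1.07), which encode enzymes of the pathway. slc48a1b, named after the mammalian transporter that moves haem out of the phagolysosome, fell (-1.09, -1.73) as the only change among 9 genes of haem breakdown and transport. glrx5, a mitochondrial iron-sulfur cluster gene, rose (1.71, 1.21), the only change among 11 genes of iron uptake and release. None of 3 iron-sensing genes and none of 4 genes of metal response and zinc transport reached 2-fold in both pairs; among them mtf1, which encodes the metal-sensing transcription factor that drives metallothionein genes, had log2 ratios of 0.05 and 0.04. Of 13 genes of dissociation and heat stress, atf3 fell (-1.34, -1.14).

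Outside macrophage-like cells R848 moved few members. Of 64 pairs of a member and a class with enough UMIs, over 8 classes, 5 fell and none rose, against 0.14% falling and 1.34% rising among all gene-class pairs. In neutrophil-like cells fthl27 had 1587 and 2248 CPM in rag1 and slc24a5 crispants with R848, against 3308 and 5067 CPM untreated. In erythroid-like cells mt2 had 82.9 and 37.2 CPM with R848, against 181 and 169 CPM untreated; with both erythroid classes summed the smaller of its log2 ratios was -0.38. In low-haemoglobin erythroid-like cells fthl28 had 164 and 351 CPM with R848, against 913 and 1193 CPM untreated. fthl29 there had 35.8 and 68.1 CPM with R848, against 122 and 159 CPM untreated, and fthl31 had 266 and 679 CPM with R848, against 1178 and 1573 CPM untreated. slc48a1b fell in neutrophil-like cells too (-1.24, -1.92).

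The level of mt2 in neural-like cells of the same libraries was 505 CPM in rag1 and 548 CPM in slc24a5 crispants with R848, against 657 and 407 CPM untreated, with ratios in opposite directions. In T and NK/ILC-like cells mt2 had 48.5 and 33.4 CPM with R848, against 81.4 and 46.0 CPM untreated, under 2-fold in both. fth1a in erythroid-like cells, its main class, had 7257 and 6665 CPM with R848, against 7386 and 7876 CPM untreated.

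**Figure D3:**
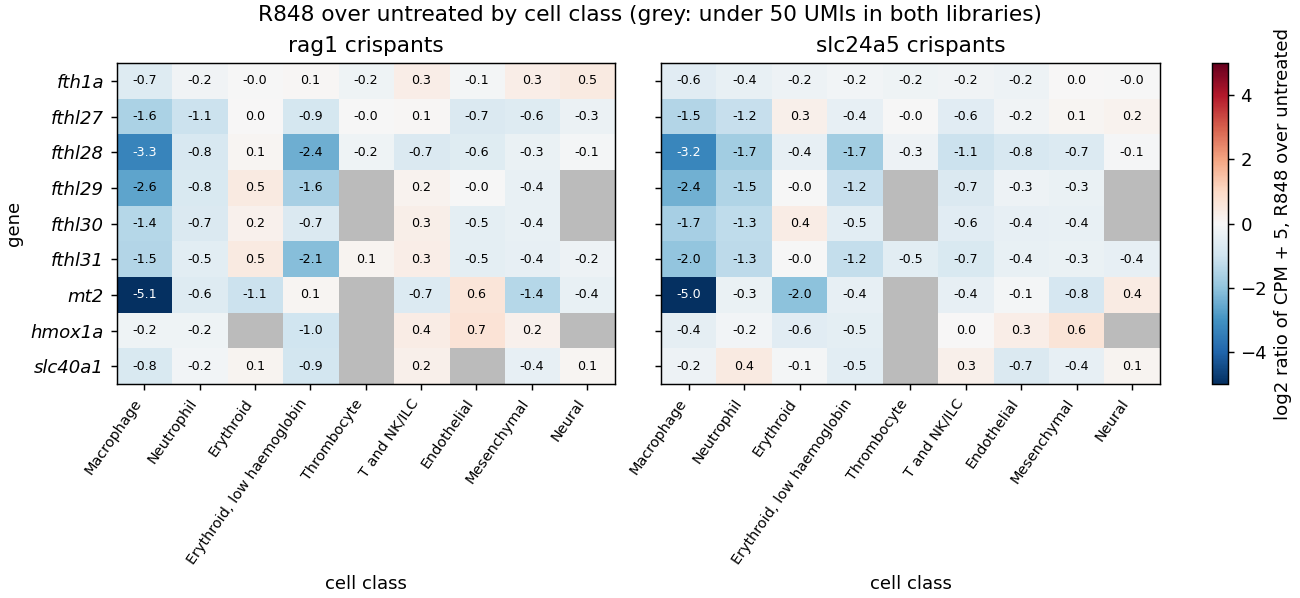
Log2 ratio of CPM + 5, R848 over untreated, for 9 members (rows) in each cell class (columns), rag1 crispants on the left and slc24a5 crispants on the right; grey marks classes with under 50 UMIs in both libraries. The deepest blue is mt2 in macrophage-like cells (-5.06 and -5.0), and the fth1a row stays pale.

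Between the rag1 and slc24a5 libraries 1 member differed by 2-fold both with R848 and untreated. rag1 crispants were compared with slc24a5 crispants with R848 and untreated, and mt2 in macrophage-like cells was the only 1 of 70 member-class pairs at 2-fold in both, against 0.18% of all gene-class pairs (0.0792% higher and 0.101% lower in rag1 crispants). Its level was 97.2 CPM in rag1 and 41.4 CPM in slc24a5 crispants with R848, and 3408 CPM in rag1 and 1479 CPM in slc24a5 crispants untreated, log2 ratios of 1.14 and 1.2. Within the cluster used for comparison the smaller ratio was 0.64, and with the richest 5% of cells left out it was 0.88, both short of 2-fold. The other members in macrophage-like cells differed by under 2-fold between the genotypes; fthl27, for example, had 13227 CPM in rag1 and 13357 CPM in slc24a5 crispants untreated.

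In larval tracing the macrophage-like cells of late-labelled larvae stood apart from those with the other labels. High fthl31 and mt2 were not limited to late label, as the untreated crispants, early-labelled too, show below. Members were compared between early and late label at 6 and at 10 dpf in 7 classes. Of 36 member-class pairs with enough UMIs, 11 were lower and 2 higher with early label at both ages, against 1.2% lower, 2.52% higher and 3.73% in either direction among all gene-class pairs. In macrophage-like cells fthl29, fthl30, fthl31, mt2 and slc40a1 were lower with early label, where 0.622% of all genes of the class were. The late-labelled counts came from Cell Ranger 7.0.1 and the early- and mid-labelled counts from 7.1.0, per the file headers, so effects of software and of late labelling cannot be told apart.

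The larval macrophage-like class held 2 clusters, numbered separately from those of the crispants, and the label ratios differed between them. Cluster 9, led by mfap4 and acod1 among others, held 54.9% of the class with early and 67.5% with late label at 6 dpf, and 68.9% with early and 82.0% with late label at 10 dpf. The rest was cluster 29, led by mhc2a and cd74a among others, with 27 late-labelled cells at 6 dpf and 47 at 10 dpf. In cluster 9 at 6 dpf fthl31 had 102 CPM with early and 940 CPM with late label, and slc40a1 had 4.63 and 165 CPM. In cluster 29 at 6 dpf fthl31 had 86.9 CPM with early and 23.3 CPM with late label, and mt2 51.4 and 5.82 CPM. There fthl29 had 20.5 CPM with early and 0 CPM with late label, slc40a1 11.2 and 0 CPM and fthl30 5.60 and 11.6 CPM. These late-labelled values rest on 27 cells and a few UMIs each, so the label order of these genes in cluster 29 at 6 dpf is uncertain. The more abundant ferritins were higher with early label in cluster 29 at 6 dpf. fthl27 had 7191 CPM with early and 1339 CPM with late label, fthl28 1121 and 34.9 CPM and fth1a 352 and 122 CPM. The late-labelled fthl28 value also rests on few UMIs. At 10 dpf cluster 29 had 119 CPM of fthl31 with early and 295 CPM with late label, and 116 and 0 CPM of mt2. The lower early-labelled values at 6 dpf were thus seen in cluster 9. At 6 dpf cluster 29 held too few late-labelled UMIs to settle the order of the rarer members, while fthl27, fthl28 and fth1a were higher with early label. At 10 dpf fthl31 was lower with early label in cluster 29 and also in cluster 9, which had 84.6 CPM with early and 311 CPM with late label. The difference between the clusters was not tested.

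fthl31 showed it most widely. In macrophage-like cells it had 97.5 CPM with early, 27.2 CPM with mid and 756 CPM with late label at 6 dpf, and 91.1, 45.6 and 309 CPM with early, mid and late label at 10 dpf. Late label was highest at both ages. It was lower with early than with late label also in neutrophil-like, HSPC-like, T and NK/ILC-like, endothelial-like and mesenchymal-like cells, which makes 6 of the 7 classes; the thrombocyte-like class had too few UMIs, 7.25 and 12.1 CPM with early against 85 and 64.4 CPM with late label. HSPC-like cells, for example, had 39.2 CPM with early and 154 CPM with late label at 6 dpf, and 15.4 CPM with early and 91.5 CPM with late label at 10 dpf. The part of the software version in these values was not tested.

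The main macrophage ferritin did not share this pattern in the class as a whole. fthl27 had 10645 CPM with early, 4853 CPM with mid and 12116 CPM with late label at 6 dpf, and 11275, 9294 and 9821 CPM with early, mid and late label at 10 dpf. fth1a in macrophage-like cells likewise stayed within 2-fold between early and late label, with 598 and 515 CPM at 6 dpf and 510 and 574 CPM at 10 dpf. Within cluster 9 at 6 dpf fthl27 had 11963 CPM with early and 14815 CPM with late label. In cluster 29 at 6 dpf its order was the reverse, with 7191 CPM with early and 1339 CPM with late label. fthl28 had 560 CPM with early, 59.4 CPM with mid and 1416 CPM with late label at 6 dpf, and 514, 159 and 346 CPM with early, mid and late label at 10 dpf. It was the only member at 2-fold or more between early and mid label in macrophage-like cells at both ages, with log2 ratios of 3.13 and 1.67 (0.854% of all genes of the class). Without the richest 5% of cells, a choice made after the data were seen, fthl28 had 190 CPM with early and 24.8 CPM with mid label at 6 dpf. At 10 dpf it then had 155 CPM with early and 91.4 CPM with mid label, short of 2-fold. Between mid and late label, fthl28, fthl29, fthl30, fthl31, mt2 and slc40a1 were lower with mid label at both ages, where 2.13% of all genes of the class were. For mt2, fthl29 and slc40a1 the call at 10 dpf was lost without the richest 5% of cells. mt2 then had 3.23 CPM with mid and 0 CPM with late label, the reverse order. fthl29 had 0 and 2.22 CPM and slc40a1 0 and 1.45 CPM, short of 2-fold on the CPM + 5 scale.

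Among the larval tracing libraries, fthl29, fthl30 and slc40a1 stood at 9.03 CPM or less in macrophage-like cells with early and mid label at 6 and 10 dpf. The untreated crispant libraries are early-labelled too but come from another kit and software version. They had more at 8 dpf in rag1 and slc24a5 crispants, with fthl29 at 319 and 224 CPM and fthl30 at 225 and 263 CPM. slc40a1 had 51.2 and 35.4 CPM there, fthl31 642 and 982 CPM and mt2 3408 and 1479 CPM. Late-labelled larvae at 6 dpf had 756 CPM of fthl31 and 636 CPM of mt2. High fthl31 and mt2 were thus not limited to late label, and the cause of the difference between experiments was not tested. fthl30 had 2.84 CPM with early, 2.85 CPM with mid and 400 CPM with late label at 6 dpf, and 0.815, 0.739 and 16.4 CPM with early, mid and late label at 10 dpf. fthl29 had 9.03 CPM with early, 0 CPM with mid and 204 CPM with late label at 6 dpf, and 3.75, 1.11 and 12.8 CPM with early, mid and late label at 10 dpf; the count of 0 allows up to 1.22 CPM, taking 3 counts as the limit for a count of 0. slc40a1 had 6.45 CPM with early, 2.85 CPM with mid and 132 CPM with late label at 6 dpf, and 2.12, 0.739 and 25.9 CPM with early, mid and late label at 10 dpf. The late-labelled values were lower at 10 than at 6 dpf in all 3 genes, and the 10 dpf gap for fthl29 is small: its smaller log2 ratio moved to -0.94 when the UMIs were thinned to equal totals.

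mt2 in these cells rests on very few of them. It had 22.2 CPM with early, 19.1 CPM with mid and 636 CPM with late label at 6 dpf, and 31.3, 17.9 and 83.2 CPM with early, mid and late label at 10 dpf. The late-labelled value came from 83 cells at 6 dpf, of which 10 held 99.5% of its UMIs, and from 1.92% of the cells at 10 dpf. Without the richest 5% of cells, a choice made after the data were seen, mt2 had 5.09 CPM with early and 37.5 CPM with late label at 6 dpf, the same direction as before, but 6.55 CPM with early and 0 CPM with late label at 10 dpf, where the log2 ratio turned round to 1.21. slc40a1 also fell short of 2-fold at 10 dpf without those cells, at a log2 ratio of -0.37. So did fthl29 at 10 dpf on the CPM + 5 scale, with 0 CPM with early and 2.22 CPM with late label. In late-labelled macrophage-like cells the cells were shallower at 6 dpf (median 7334 UMIs, against 14272 with early and 20549 with mid label).

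hmox1a was higher in late-labelled macrophage-like cells at 4 and 6 dpf than at 10 dpf. It had 514 CPM at 4 dpf, 742 CPM at 6 dpf and 105 CPM at 10 dpf with late label. With early label it had 65.0 CPM at 6 dpf and 107 CPM at 10 dpf, and with mid label 44.3 and 129 CPM. At 10 dpf the 3 labels thus lay between 105 and 129 CPM, while at 6 dpf late label stood 10.7-fold above early label on the CPM + 5 scale. That held in cluster 9, with 62.0 CPM with early and 927 CPM with late label at 6 dpf. In cluster 29 hmox1a had 72.8 CPM with early and 5.82 CPM with late label, the latter on 27 cells and very few UMIs. The 10 richest of the 83 late-labelled cells held 90.0% of the UMIs at 6 dpf. Of the iron, haem, metal and oxidative stress lists, 26 genes could be compared in macrophage-like cells between early and late label, and slc48a1b was the only change, lower with early label (-2.46 at 6 dpf, -1.02 at 10 dpf), where 0.622% of all genes of the class were lower and 1.48% changed in either direction.

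**Figure D4:**
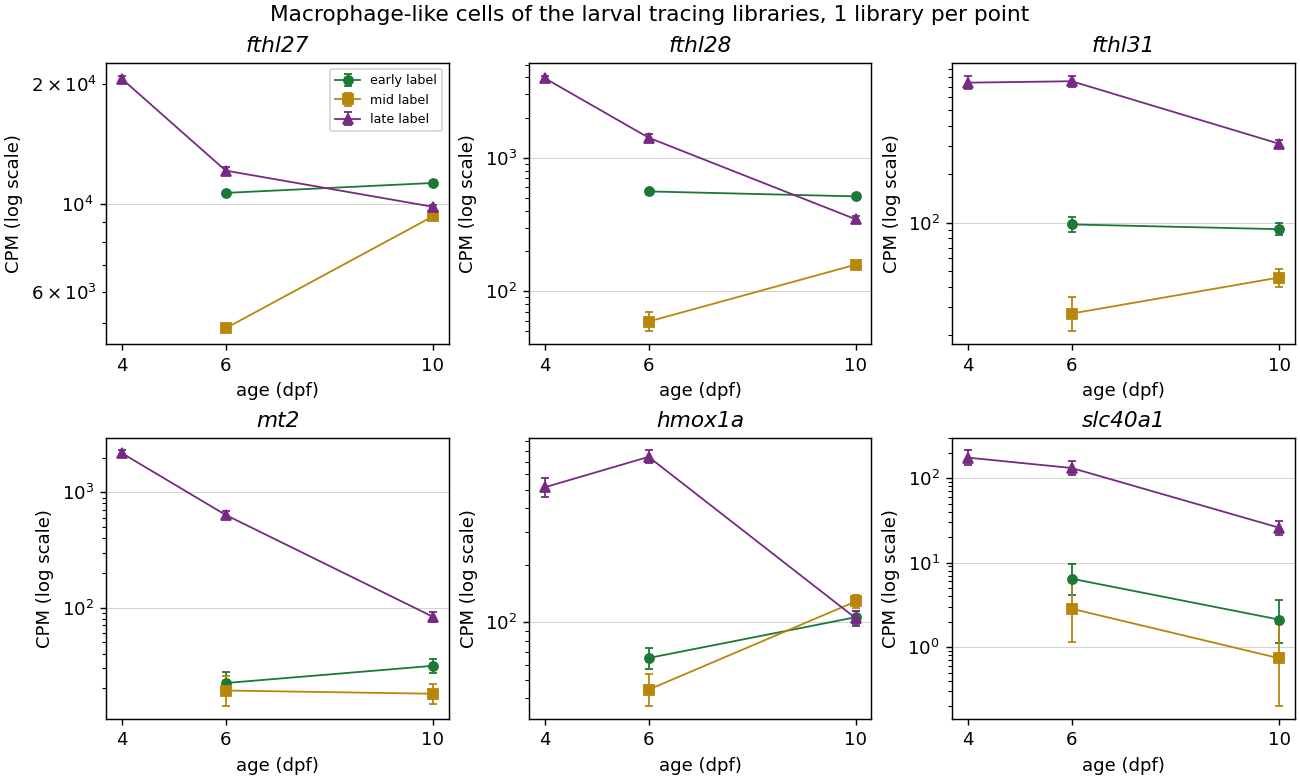
CPM on a log axis against age in dpf for fthl27, fthl28, fthl31, mt2, hmox1a and slc40a1 in macrophage-like cells, 1 line per label and 1 library per point, with exact Poisson 95% intervals. Late label lies above early and mid label for fthl31, mt2 and slc40a1 at 6 and 10 dpf, while hmox1a meets at 105 to 129 CPM at 10 dpf.

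mt2 ran the other way in lymphoid-like and stem-like cells. T and NK/ILC-like cells had 249 CPM with early, 79.7 CPM with mid and 35.6 CPM with late label at 6 dpf, and 271, 316 and 40.5 CPM with early, mid and late label at 10 dpf. HSPC-like cells had 112 CPM with early, 20.9 CPM with mid and 6.19 CPM with late label at 6 dpf, and 32.2, 54.9 and 4.65 CPM with early, mid and late label at 10 dpf. Late label was lowest in both classes at both ages. The lymphoid-like mixture differed: cluster 6 of the larval tracing cells held 60.8% and 64.6% of the class with early label at 6 and 10 dpf, against 26.8% and 25.5% with late label. Within cluster 6 mt2 had 217 and 323 CPM with early label, against 24.2 and 3.20 CPM with late label at 6 and 10 dpf. These late-labelled values rest on 30 and 47 cells and very few mt2 UMIs. Within cluster 7, the largest of the class with late label at 6 dpf, the order was the reverse at 6 dpf, with 15.0 CPM with early and 39.4 CPM with late label, a log2 ratio of -1.15, and not at 10 dpf, with 54.0 CPM with early and 7.61 CPM with late label.

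The comparison of ages called no member. Between 10 and 6 dpf, 0 of 16 member-class pairs changed by 2-fold in the same direction with early, mid and late label. Among all gene-class pairs 1.02% did (0.66% higher and 0.361% lower at 10 dpf). With so few pairs, 0 is near that share, so the count says little about the members. One day after labelling, macrophage-like cells were frequent enough only in late-labelled larvae, at 4 dpf. There fthl27 stood at 20620 CPM, fthl28 at 3945 CPM and mt2 at 2181 CPM, on 71 cells, of which 10 held 90.6% of the mt2. Erythroid-like cells kept fth1a between 2517 and 5868 CPM over their 6 larval tracing libraries, and mt2 between 197 and 442 CPM.

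In adults, fthl27 in macrophage-like cells differed more between thymus and the other tissues than between labels. In single tissues other members differed by more than 2-fold between labels, such as hmox1a in thymus and mt2 in intestine. Early against late label was compared in kidney marrow, intestine, thymus and TLN, and a change had to reach 2-fold in at least 3 tissues; 1 of 11 member-class pairs did, against 0.377% of all gene-class pairs (0.16% higher and 0.217% lower with early label). That was fthl28 in T and NK/ILC-like cells, with 33.6 CPM with early and 13.9 CPM with late label in kidney marrow, 40.3 and 8.37 CPM in thymus, 41.3 and 10.2 CPM in TLN, but 4.22 and 5.08 CPM in intestine. It fell short of 2-fold in at least 3 tissues when UMIs were thinned to equal totals, with a log2 value of 0.97.

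Macrophage-like cells were compared in 3 tissues, since the TLN libraries had too few. fthl27 had 9820 CPM with early and 8811 CPM with late label in thymus, 2380 and 1882 CPM in intestine and 1724 and 1441 CPM in kidney marrow. Both thymus libraries lay above the other 4. mt2 had 502 CPM with early and 605 CPM with late label in thymus, 204 and 43.7 CPM in intestine and 1.71 and 6.65 CPM in kidney marrow, so the order of tissues was the same with both labels. In the late-labelled thymus, 10 of 175 cells held 92.8% of the mt2. hmox1a had 422 CPM with early and 1460 CPM with late label in thymus, 175 and 136 CPM in intestine and 141 and 117 CPM in kidney marrow; in the late-labelled thymus 10 cells held 56.1% of it. fth1a in macrophage-like cells was lowest in kidney marrow, with 309 CPM with early and 542 CPM with late label, against 991 and 1273 CPM in intestine and 2048 and 1369 CPM in thymus. slc40a1 stayed at or below 37.6 CPM in these 6 libraries. Tissue and dissociation go together here, since the intestine was digested with collagenase and the other tissues were triturated; the 13 stress genes summed to 33510 and 27070 CPM in macrophage-like cells of intestine with early and late label, against 1873 to 4131 CPM in the other 4 libraries, and their part in the tissue differences was not tested.

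The TLN stood out for mt2 in lymphoid cells. T and NK/ILC-like cells there had 2997 CPM with early and 1131 CPM with late label, against 260 and 270 CPM in thymus, 81.5 and 51.7 CPM in intestine and 40.9 and 105 CPM in kidney marrow. An mt2 UMI was seen in 53.6% of 375 early-labelled and 40.4% of 228 late-labelled TLN cells of this class. Erythroid-like cells of the TLN, which make up most of those libraries, had 182 and 115 CPM with early and late label. fth1a was also higher in T and NK/ILC-like cells of the TLN, with 1781 and 669 CPM with early and late label, against 122 to 535 CPM in the other 6 adult libraries. Haemoglobin genes summed to 44857 and 23549 CPM in the T and NK/ILC-like cells of the TLN with early and late label, and to 48.0% and 35.6% of all UMIs of those libraries; their part in the fth1a level was not tested. The mt2 level of erythroid-like cells in those libraries lay below that of the T and NK/ILC-like cells, and the source of the mt2 difference was not tested.

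**Figure D5:**
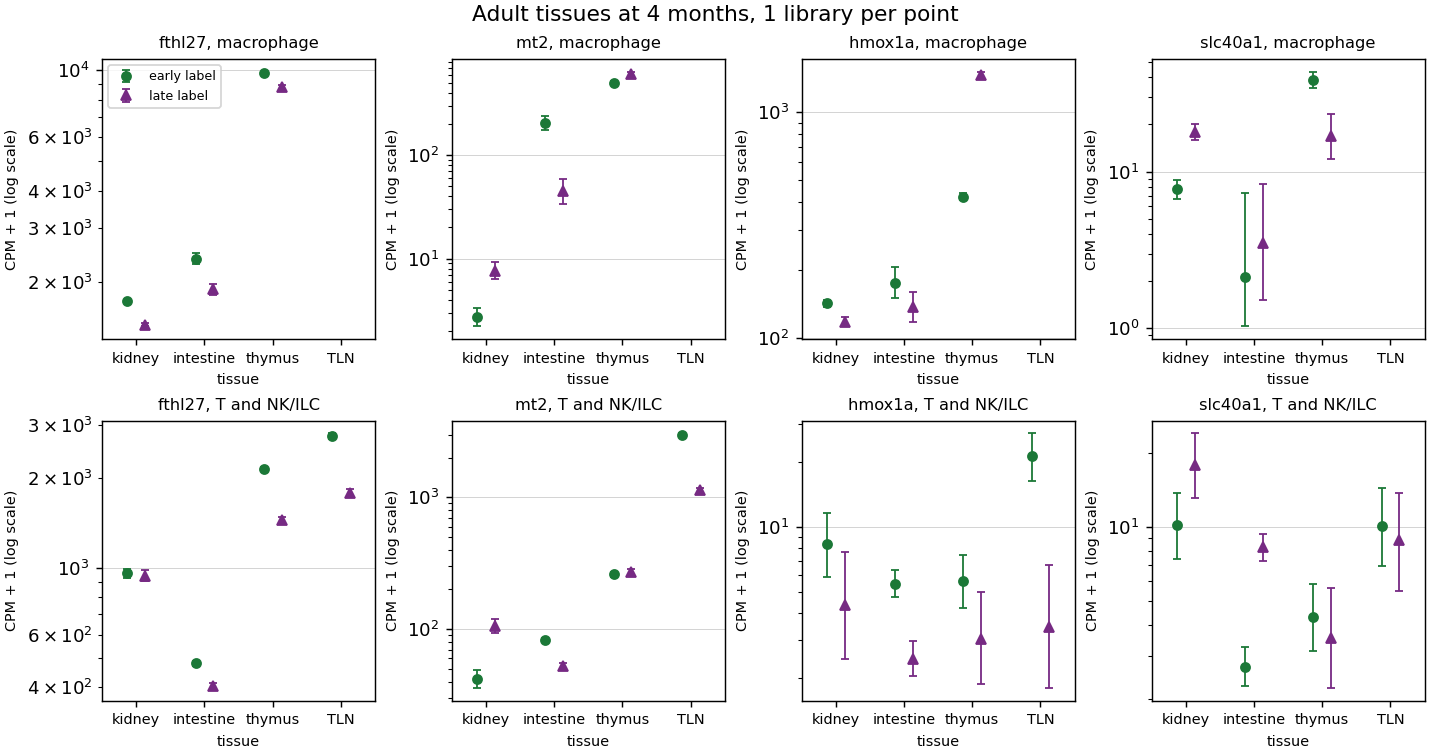
CPM + 1 on a log axis of members in macrophage-like and T and NK/ILC-like cells of adult tissues, early label left of late label, 1 library per point with exact Poisson 95% intervals. Thymus is highest for fthl27 in macrophage-like cells (9820 and 8811 CPM), and the TLN is highest for mt2 in T and NK/ILC-like cells (2997 and 1131 CPM).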

How the data were processed

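The 21 libraries were gene-by-cell tables of raw UMI counts, filtered barcodes as deposited by the authors. They came from Cell Ranger 7.1.0 (early and mid larval), 7.0.1 (late larval), 8.0.1 (crispant) and 9.0.0 (adult), per the file headers, and the build was GRCz11, per the submitters' processing notes. Kits were 3′ v3.1 for larval tracing and v4 for crispant and adult libraries, per the labels' protocols. Cells with at least 500 UMIs, 200 genes and at most 20% mitochondrial UMIs were kept. The highest Scrublet scores were removed at 0.8% (v3.1) or 0.4% (v4) per 1000 barcodes. Larval tracing, crispants and each adult tissue were clustered as 6 separate sets (Python 3.11.15, scanpy 1.11.5, 2000 variable genes without the members, 30 components, 15 neighbours, Leiden resolution 1) and named by marker lists. Merging T-lineage with NK/ILC and splitting erythroid clusters at 10% haemoglobin were decided after the data were seen. Counts were summed per library and class, and log2 ratios used a pseudocount of 5 CPM. The call needed 2-fold in every pair, 50 UMIs in the higher library and 50 cells in each; the adult comparison needed 3 tissues. All members were named, and up to 4 called genes per pathway list, by the size of the smaller ratio; txnrd3 is named beyond that. Groups hold 1 library each, so no test was run. The scripts were tested on simulated data. The members and lists were chosen with earlier results of these data known. Alternatives covered the pseudocount, scaling, haemoglobin, depth, cell filter, doublets, cell means, single clusters, UMI minimum and fold; leaving out the richest 5% of cells and joining the erythroid classes were added after seeing the data.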

Additional observations from a re-analysis of the deposited data

Results flagged for a closer look

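In 4 cases a member moved by 2-fold or more in opposite directions in 2 libraries' comparisons of the same kind; the differences were not tested, and each value rests on 1 library per group. mt2 in adult T and NK/ILC-like cells was higher with early than with late label in the TLN (log2 ratio 1.40, 2997 against 1131 CPM) and lower in kidney marrow (-1.26, 40.9 against 105 CPM). Between 10 and 6 dpf, fthl28 in macrophage-like cells was higher at 10 dpf with mid label (1.35, 159 against 59.4 CPM) and lower with late label (-2.02, 346 against 1416 CPM). hmox1a in macrophage-like cells did the same, with 1.44 for mid label (129 against 44.3 CPM) and -2.76 for late label (105 against 742 CPM). mt2 in HSPC-like cells was higher at 10 dpf with mid label (1.21, 54.9 against 20.9 CPM) and lower with early label (-1.65, 32.2 against 112 CPM).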

How the results depend on the processing

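No paired analysis was possible because each group is 1 library, and no replicate could be left out. R848 in macrophage-like cells gave 6 members at every setting except single-cell means and a minimum of 10 UMIs, which gave 7, and age gave 0 throughout. The single-cluster setting there was cluster 10. In cluster 9 of rag1 crispants 1 of the 6 members, fthl28, reached 2-fold on the CPM + 5 scale. R848 in the other classes gave 5 pairs, but 8 with a pseudocount of 1 CPM and 12 at 1.5-fold. Early against late larval label gave 13 pairs, but 7 within a single cluster and 7 without the richest 5% of cells. The adult comparison gave 1 pair, but 0 with thinned UMIs, without doublet removal, with single-cell means, within a single cluster and without the richest 5% of cells. Genotype gave 1 pair, but 0 with single-cell means and within a single cluster, and 2 at 1.5-fold. That pair, mt2 in macrophage-like cells, also fell short of 2-fold without the richest 5% of cells. The causes were not tested. Of 303 checks of 26 single values, 274 stayed within the limit, 27 moved and 2 turned round: mt2 with early against late label in macrophage-like cells at 10 dpf, not at 6 dpf, without the richest 5% of cells (1.21), and in T and NK/ILC-like cells within a single cluster (-1.15). The latter value, in T and NK/ILC-like cells at 6 dpf, rested on fewer than 50 mt2 UMIs in each library. Depth limits the rarer copies and slc40a1, which often had under 50 UMIs.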
